A study of Mus musculus with 29 samples.

Results

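The change between the third and the fifth week was followed in mice whose peritoneal gastric cancer persisted under combined blockade of PD1 and CTLA4, the dual immune checkpoint inhibitor (ICI) treatment. The 2 libraries titled as dual ICI mice 1 and 5 of day 35 were set against the 5 libraries of dual ICI mice taken on day 21, which makes 7 of the 29 RNA-seq libraries of the series. The 5 untreated mice of day 35 and the 5 untreated mice of day 21 give the change over the same interval without ICI, and it is stated beside the genes described. Mice were female C57BL/6J, 5 to 6 weeks old at the start, and all received YTN16 cells, a mouse gastric cancer line, into the peritoneal cavity on day 0. Dual ICI mice received anti-PD1 at 10 mg/kg and anti-CTLA4 at 5 mg/kg by intraperitoneal injection on days 5, 8 and 12, with further injections on days 21 and 28 in the mice kept to week 5. Untreated mice received PBS. Each library was made from the tissue of 1 mouse. The sample labels do not give the outcome of a mouse. The study's text names dual ICI mice 1 and 5 as uncured at autopsy in week 5, and these numbers were matched to the numbers in the sample titles. The mice of week 3 were killed before an outcome could be known, so the 5 dual ICI mice of week 3 may hold mice of either kind.

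PD1 and CTLA4 are inhibitory receptors of T cells, and antibodies to them release T cells from that restraint. Activated T cells and NK cells secrete interferon gamma, which induces guanylate-binding proteins (GBPs), immunity-related GTPases, the chemokines Cxcl9 and Cxcl10, and antigen presentation. The tissue is described as tumour tissue in the labels and as peritoneum stripped with or without nodules in the study's methods. Such tissue can hold tumour epithelium, abdominal wall muscle, mesothelium, fat and infiltrating immune cells. In bulk RNA-seq, fewer cells of a type cannot be told apart from less RNA per cell.

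Total counts ranged from 25989217 to 31219650 per library over the 29 libraries. Levels are given as CPM, the counts of a gene divided by the library total after TMM scaling and set to a common size, and log2 fold changes ± standard error (SE) are from edgeR's quasi-likelihood test. The test itself gives no SE. The SE was derived as the absolute log2 fold change divided by the square root of the test's F statistic, and is approximate. A gene was called at a Benjamini-Hochberg adjusted p below 0.05 over all genes tested. The libraries of week 5 and of week 3 carry identifiers of different sequencing series, so week and sequencing series cannot be told apart in either arm. The libraries also differed in tissue composition. Genes of skeletal muscle (28 genes) took 8.76% and 6.26% of the counts of the uncured mice, against 8.27% to 21.7% in dual ICI mice of week 3. The lowest of these, mouse 4 of week 3, lay between the 2 uncured mice. Genes of gastric epithelium (28 genes) took 0.538% and 0.653% in the uncured mice and 0.104% to 0.423% in dual ICI mice of week 3. In untreated mice the muscle share was 7.08% to 23.3% in week 5 and 8.89% to 18.2% in week 3, and the epithelial share 0.120% to 0.486% and 0.105% to 0.364%. Untreated mouse 2 of week 5 had the highest muscle share and the lowest epithelial share of its group. The part of these shares in the results below was not tested apart from a fit with the muscle share as a covariate. Apart from mouse 4, the dual ICI mice of week 3 had muscle shares above both uncured mice. In the dual ICI arm that fit therefore cannot cleanly separate muscle share from week.

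**Figure D1:**
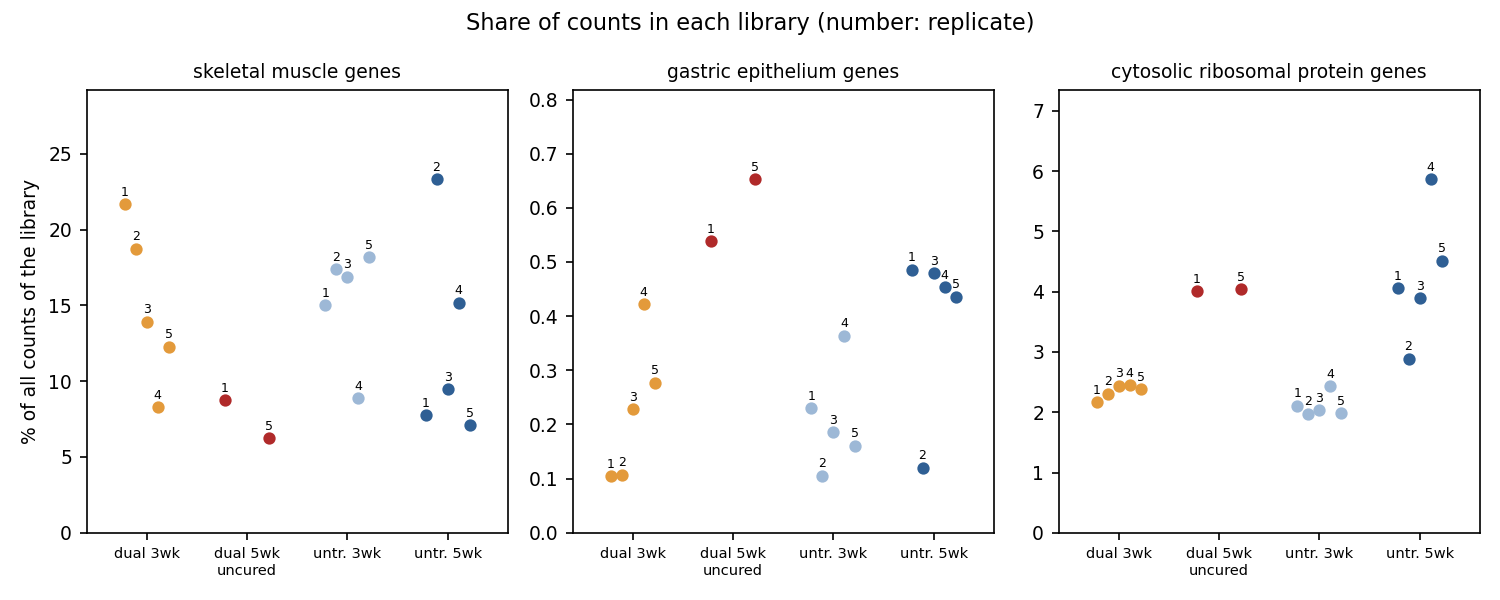
Percent of all counts of each library taken by skeletal muscle, gastric epithelium and cytosolic ribosomal protein genes (vertical axes start at 0) in the 4 groups, with each point 1 library and the number its replicate. Both uncured libraries lie above all 5 dual ICI libraries of week 3 for epithelial and ribosomal protein genes, while their muscle shares of 6.26% and 8.76% overlap those of week 3, which run from 8.27% to 21.7%.

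Between week 3 and week 5, 857 of 16135 genes tested were called in the dual ICI arm (5.31%), 492 higher (3.05%) and 365 lower (2.26%) in the uncured mice. Of these, 360 rose and 288 fell by more than 2-fold. The groups did not overlap in CPM for any of the 492 and 365 genes. Where both uncured mice are said below to lie above or below week 3 for a called gene, this adds nothing to its call. The share of all genes without overlap was not counted. For a gene that was not called, such a position is therefore a description only and no support for a change. In untreated mice 1687 of 15604 genes were called (10.8%), 973 higher (6.24%) and 714 lower (4.58%). The counts of list members called below are to be read beside these shares of all genes in each arm. The share of genes with an unadjusted p under 0.05 was 28.8% in the dual ICI arm and 30.1% in the untreated arm. The test of the difference itself, the change in the dual ICI arm minus that in untreated mice, called 0 of 16542 genes with edgeR (0% in either direction), at a smallest adjusted p of 0.707. An unadjusted p under 0.05 was reached by 1050 genes (6.35%), and DESeq2 called 1 gene. No gene was therefore shown by edgeR to change differently in the 2 arms.

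The genes called in the dual ICI arm moved in the same direction in untreated mice with few exceptions. Of the 841 genes called in the dual ICI arm that were tested in both arms, 837 (99.5%) had a fold change of the same sign in untreated mice, beside 73.6% of all 15576 genes tested in both. In both arms 358 genes were called, all in the same direction, which is 42.6% of the dual ICI calls and 21.2% of the untreated calls. The median log2 fold change of the genes called higher in the dual ICI arm was 1.30 there and 0.84 in untreated mice, and that of the genes called lower was -1.51 and -0.87. Since the genes were chosen for their change in the dual ICI arm, the larger values there are a description only. Across the 15576 genes, which are not independent replicates, Pearson's r between both changes was 0.725 and Spearman's rho 0.677. The arms share no library, but both changes run between the same sequencing series.

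**Figure D2:**
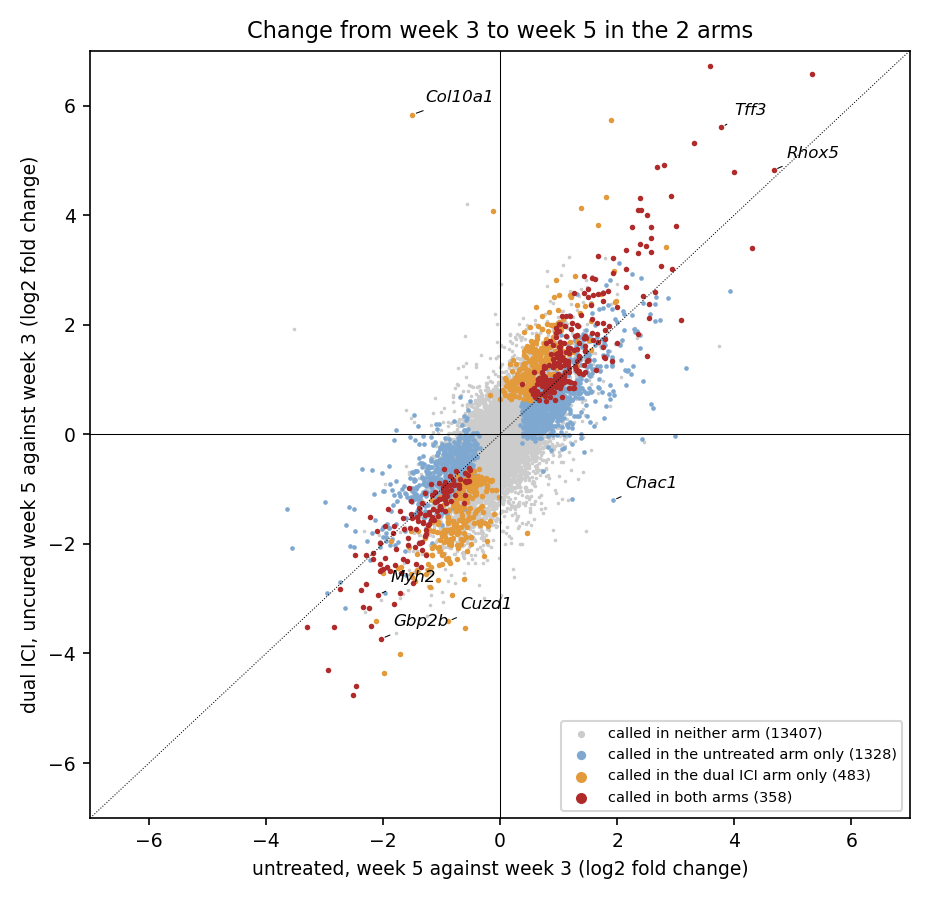
Log2 fold change of each of 15576 genes from week 3 to week 5 in untreated mice (horizontal axis) and in uncured dual ICI mice against dual ICI mice of week 3 (vertical axis), colored by the arm in which the gene was called, with a dotted line of equal change. The 358 genes called in both arms lie in the lower left and upper right quadrants, while Col10a1 lies high on the vertical axis with a negative value on the horizontal axis.

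The number of calls depended on single libraries. Without uncured mouse 1, 0 genes were called with edgeR at an adjusted p below 0.05 (2427 at an unadjusted p under 0.05), and without uncured mouse 5, 3 genes. Without mouse 3 of week 3, 3 genes were called, and without mice 1 and 2 of week 3, 32 and 20. Without mouse 4 of week 3 the count rose to 4006, while without mouse 5 it was 871. With the muscle share as a covariate 1645 genes were called, with DESeq2 3173, and with all 29 libraries in one fit 238. The 15 most increased and 15 most decreased genes named below kept their direction in each of the 7 fits that left out a library. That follows from the rule for naming them, which asked for groups that do not overlap in CPM, and is no sign of stability. Between 0 of these 30 genes (without uncured mouse 1) and 30 (without mouse 4 of week 3) remained called.

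**Figure D3:**
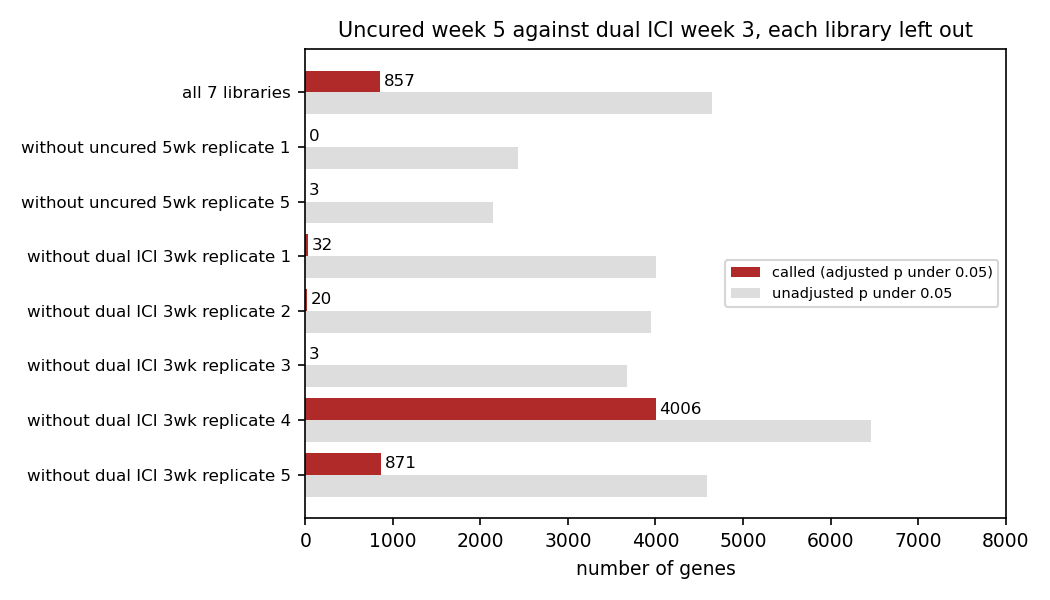
Number of genes called at an adjusted p below 0.05 (red) and with an unadjusted p under 0.05 (grey) between the uncured mice and dual ICI mice of week 3, with all 7 libraries and with each library left out in turn. The count of calls is 857 with all libraries, 0 without uncured mouse 1 and 4006 without mouse 4 of week 3.

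Many of the most increased genes named in the uncured mice were secreted and structural products of stomach and squamous epithelium. Trefoil factors are small secreted peptides that protect mucosal surfaces, and Tff2 and Tff3 are neighbours on chromosome 17. Tff3 (chr17:31125306-31129646, GRCm38, minus strand) stood at 16.6 and 7.44 CPM in the uncured mice, whereas the 5 dual ICI mice of week 3 had 0.206, 0.223, 0.132, 0.428 and 0.191 CPM. All values of week 5 were above those of week 3. The log2 fold change was 5.60 ± 0.43 (adjusted p = 0.00946), and in untreated mice it was 3.78 ± 0.61 (adjusted p = 0.00633). Tff2 (chr17:31141049-31144282) reached 35.5 and 14.0 CPM against 0.165, 0.0372, 0.0331, 1.90 and 0.763 CPM in week 3, a log2 fold change of 5.32 ± 0.98 (adjusted p = 0.0348). In untreated mice Tff2 changed by 3.32 ± 0.53 (adjusted p = 0.00633), from 2.32 to 6.89 CPM to 7.59 to 80.9 CPM, so that the dual ICI mice of week 3 started below all untreated mice of that week.

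Of the 25 genes of the gastric epithelium list that were tested, 4 rose and 0 fell in the uncured mice, and 24 had a positive value, with a median log2 fold change of 1.12 beside -0.03 over all genes tested. The 4 genes were Tff2, the transcription factor Gata4, the mucin Muc1 and the keratin Krt19. In untreated mice 3 of 25 rose and the median was 0.79. When the muscle share was a covariate, 2 of the 25 were called higher and 1 lower, and the median was 0.33. Muc1, a cell surface mucin, was at 137 and 89.5 CPM in the uncured mice and at 12.0, 12.8, 25.7, 44.6 and 30.2 CPM in week 3 (2.17 ± 0.45, adjusted p = 0.0394, and in untreated mice 1.20 ± 0.33, adjusted p = 0.0386). Krt19, a keratin of simple epithelia, was at 887 and 1183 CPM and 257, 253, 379, 532 and 500.3 CPM (1.42 ± 0.33, adjusted p = 0.0463), while its change in untreated mice, 0.96 ± 0.35 (adjusted p = 0.0899), was not called. Gata4 changed by 1.27 ± 0.26 (adjusted p = 0.0384), and by 0.92 ± 0.39 (adjusted p = 0.137) in untreated mice.

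The intestinal differentiation list held 4 genes that rose among 13 tested and none that fell, at a median of 1.62 (in untreated mice 5 of 12 rose at 1.08). Reg3b, a secreted antimicrobial lectin, was at 529 and 224 CPM in the uncured mice and at 18.8, 18.1, 37.6, 71.7 and 39.9 CPM in week 3 (3.33 ± 0.51, adjusted p = 0.0305). Its change in untreated mice was 2.58 ± 0.46 (adjusted p = 0.00947). Cdx2, the homeobox factor that directs intestinal identity, rose from 8.87 to 20.01 CPM to 43.2 and 41.6 CPM (1.67 ± 0.31, adjusted p = 0.0348, and in untreated mice 1.10 ± 0.30, adjusted p = 0.0421). Guca2a, which encodes the peptide guanylin, and Fabp1, a fatty acid-binding protein of enterocytes and liver, rose by 1.82 ± 0.42 (adjusted p = 0.0469) and 3.39 ± 0.81 (adjusted p = 0.0498). Their changes in untreated mice were 1.66 ± 0.41 (adjusted p = 0.0289) and 4.30 ± 0.75 (adjusted p = 0.00883). With the muscle share as a covariate the calls of Guca2a and Fabp1, as well as those of Gata4 and Krt19, were lost, and the median of the intestinal list was 0.99.

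Among 13 tested genes of the squamous list, 4 rose, all of them keratins, and none fell (median 1.51, and in untreated mice 4 of 13 rose at 1.38). Under the muscle covariate 3 were called and the median was 0.60. Krt5, a keratin of basal cells of stratified epithelium, was at 46.4 and 21.8 CPM in the uncured mice and at 0.660, 2.53, 0.0992, 1.66 and 0.731 CPM in week 3. The groups were far apart, at a log2 fold change of 4.89 ± 0.73 (adjusted p = 0.0292), and in untreated mice it was 2.68 ± 0.66 (adjusted p = 0.0286). Krt15 was at 14.1 and 6.54 CPM against 0.508 to 1.19 CPM (3.803 ± 0.39, adjusted p = 0.0121, and in untreated mice 3.00 ± 0.68, adjusted p = 0.0211). Krt17, another basal and wound keratin, was at 5.63 and 1.99 CPM against 0.0661 to 0.335 CPM (4.09 ± 0.55, adjusted p = 0.0278, and in untreated mice 2.41 ± 0.54, adjusted p = 0.0198). Krt6a was near its detection limit in week 3 (0, 0.0372, 0, 0.0802 and 0.127 CPM) and at 1.02 and 0.953 CPM in the uncured mice (adjusted p = 0.0328), and it was not called in untreated mice (adjusted p = 0.0585).

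Other genes of epithelial surfaces were among the most increased. Ly6d, a membrane protein of keratinocytes and of early B cells, was at 42.5 and 32.7 CPM in the uncured mice and 0.784, 3.39, 0.926, 2.51 and 1.72 CPM in week 3 (4.31 ± 0.47, adjusted p = 0.0153, and in untreated mice 2.38 ± 0.51, adjusted p = 0.0182). Fat2, an atypical cadherin of squamous epithelium, rose from 0 to 0.318 CPM to 5.28 and 1.82 CPM (4.91 ± 0.78, adjusted p = 0.0305, and in untreated mice 2.80 ± 0.70, adjusted p = 0.0296). Tgm3, a transglutaminase of the cornified envelope, was at 2.34 and 0.545 CPM against 0 to 0.127 CPM (4.35 ± 0.75, adjusted p = 0.0328, and in untreated mice 2.91 ± 0.53, adjusted p = 0.00994). Gsdmc3 belongs to a cluster of closely related gasdermin C genes, so its reads may be shared with its copies, and it was at 11.8 and 3.27 CPM against 0.0413 to 1.34 CPM (3.79 ± 0.81, adjusted p = 0.0414, and in untreated mice 2.26 ± 0.45, adjusted p = 0.0143). For all 4 genes both uncured mice were above the highest mouse of week 3, as the rule for naming them required.

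A further group of increased genes has roles outside the epithelial lists. Rhox5, an X-linked homeobox gene of the reproductive tract that is often active in tumour cell lines, was at 6.37 and 2.97 CPM in the uncured mice and at 0.0825, 0.0745, 0.132, 0.374 and 0.0953 CPM in week 3. Its change was about the same in both arms, 4.82 ± 0.56 (adjusted p = 0.0163) with dual ICI and 4.68 ± 0.73 (adjusted p = 0.0062) without, and the difference of 0.16 ± 1.36 had an unadjusted p of 0.91. Igfbp2, an insulin-like growth factor-binding protein, rose from 0.298 to 0.856 CPM to 5.22 and 12.0 CPM (4.01 ± 0.45, adjusted p = 0.0157, and in untreated mice 2.502 ± 0.42, adjusted p = 0.00734). Plch2, a phospholipase C, rose from 0.165 to 0.722 CPM to 9.67 and 3.05 CPM (3.82 ± 0.53, adjusted p = 0.028) and was not called in untreated mice (1.67 ± 0.63, adjusted p = 0.105). Gc, the vitamin D-binding protein, was at 1.06 and 3.16 CPM against 0 to 0.286 CPM (3.78 ± 0.75, adjusted p = 0.0375, and in untreated mice 2.57 ± 0.54, adjusted p = 0.0159). Pyy, a gut and islet hormone, was at 2.37 and 8.61 CPM against 0.0413, 0.186, 0.364, 0.0267 and 0.953 CPM (4.09 ± 0.90, adjusted p = 0.0425, and in untreated mice 2.36 ± 0.43, adjusted p = 0.00968). Its neighbour on chromosome 11, the pancreatic polypeptide gene Ppy, was at 1.31 and 2.02 CPM in the uncured mice, and 4 of the 5 mice of week 3 had no count of it (adjusted p = 0.0163). It rose in untreated mice as well, from 0 to 0.0932 CPM to 0.685 to 2.90 CPM (adjusted p = 0.00298). Ppy was picked after its values had been seen.

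Col10a1, a collagen of hypertrophic cartilage, had the largest fold change of the 15 increased genes chosen by size. It was at 11.2 and 0.626 CPM in uncured mice 1 and 5, and at 0.0825, 0.0745, 0.0331, 0.134 and 0.159 CPM in the dual ICI mice of week 3. Both uncured mice were above week 3, but 1 exceeded the other many times over. The log2 fold change was 5.83 ± 0.91 (adjusted p = 0.0305). In untreated mice it was -1.50 ± 1.48 (adjusted p = 0.521), with values of 32.8, 26.3, 0.0363, 0.435 and 0.0370 CPM in week 3 and 0.200, 4.79, 0.146, 12.9 and 3.23 CPM in week 5 that overlapped widely. Col10a1 was thus one of the 4 genes called in the dual ICI arm whose sign was opposite in untreated mice. The others were Serpina1d, Glis2 and A930003A15Rik, named after their values had been seen. Glis2, a zinc finger factor, rose by 0.72 ± 0.17 (adjusted p = 0.0486) and changed by -0.17 ± 0.16 (adjusted p = 0.507) in untreated mice. Serpina1d, whose reads may be shared with its near-identical neighbours of the alpha-1-antitrypsin cluster, stayed under 1 CPM in all 7 dual ICI libraries, and was at 0.0363 to 2.20 CPM in week 3 and 0.114 to 2.15 CPM in week 5 in untreated mice. A930003A15Rik fell by 1.79 on the log2 scale (adjusted p = 0.0458, and in untreated mice 0.47 ± 0.41, adjusted p = 0.468).

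**Figure D4:**
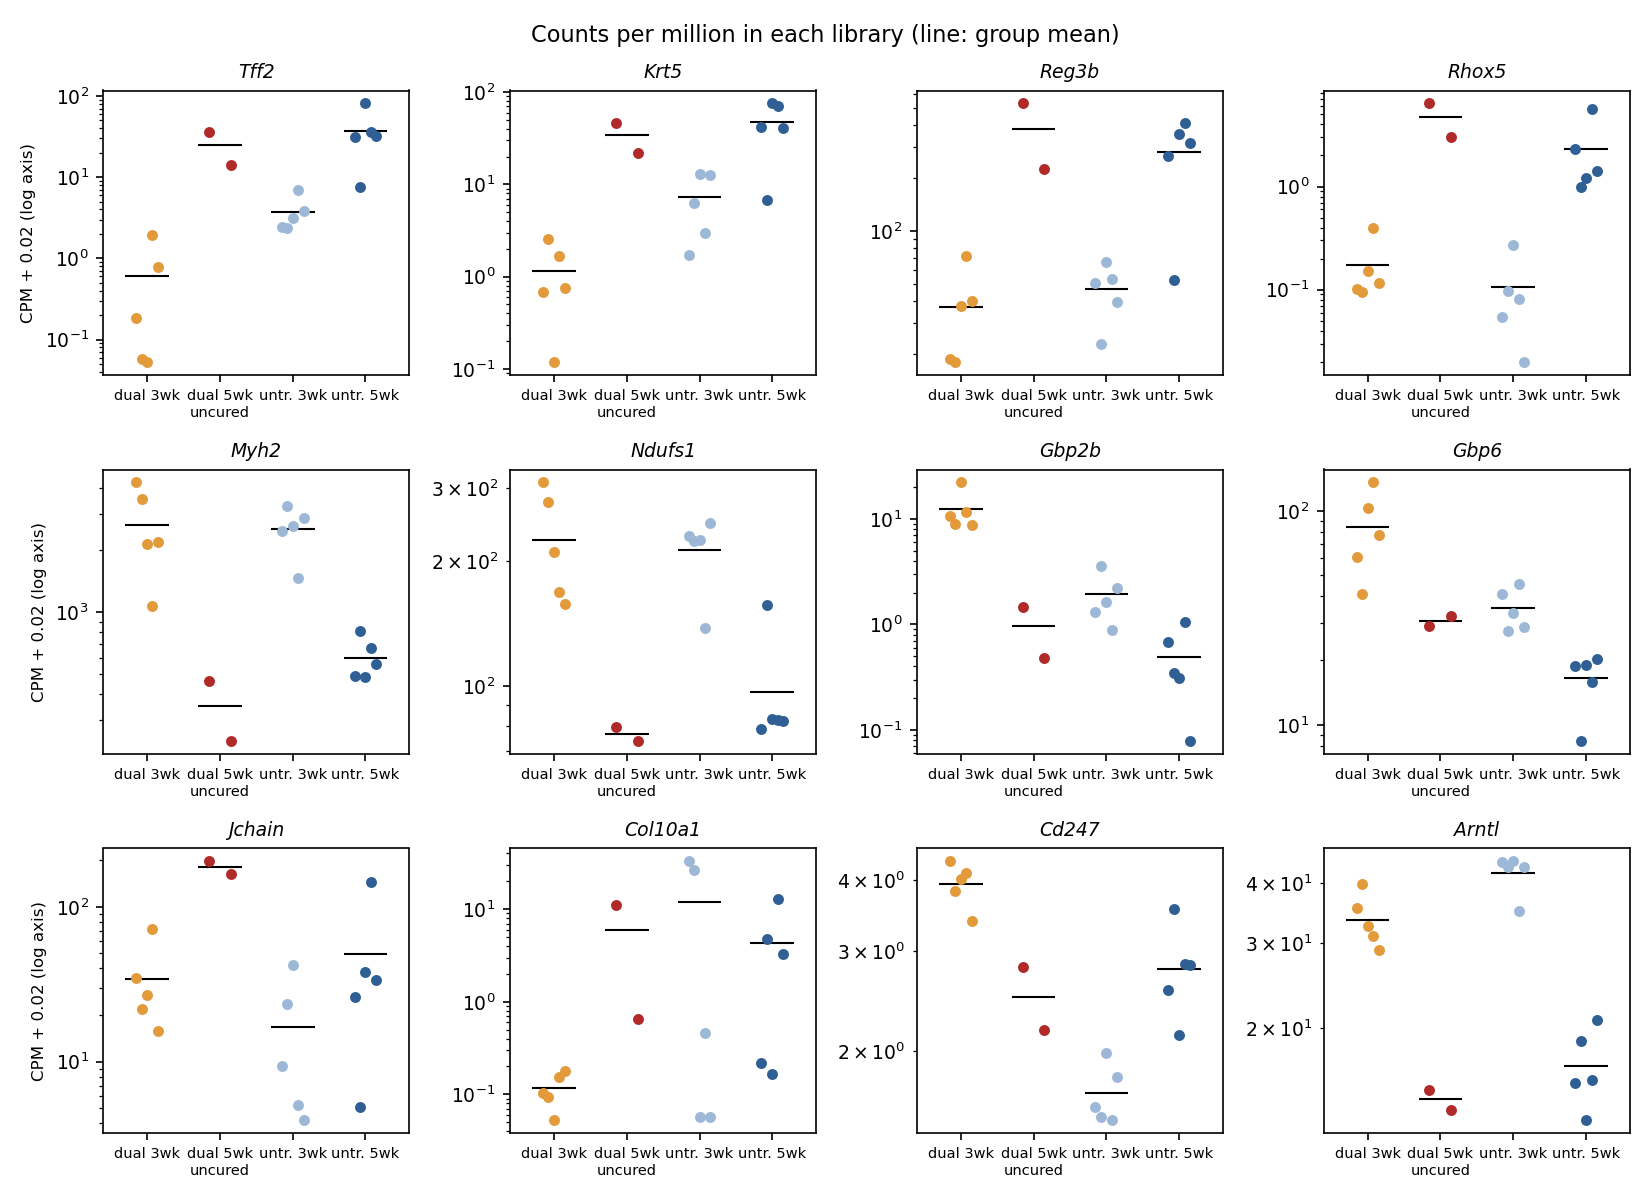
CPM plus 0.02 (log axis) of 12 genes in each library of the 4 groups, with each point 1 mouse and the line the group mean. The uncured mice lie above all dual ICI mice of week 3 for Tff2, Krt5, Reg3b, Rhox5, Jchain and Col10a1 and below them for Myh2, Ndufs1, Gbp2b, Gbp6, Cd247 and the clock gene Arntl.

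The most decreased genes named in the uncured mice included Myh2, Ckmt2 and Fabp3, which are expressed in striated muscle. Myh2, the myosin heavy chain of oxidative fast fibres, was at 464 and 237 CPM in the uncured mice and at 4271, 3534, 2146, 1068 and 2205 CPM in week 3. The log2 fold change was -2.93 ± 0.62 (adjusted p = 0.0408), and in untreated mice -2.08 ± 0.27 (adjusted p = 0.00377). Ckmt2, the mitochondrial creatine kinase of sarcomeres, was at 60.4 and 53.8 CPM against 797, 690.1, 522, 222 and 320.0 CPM (-3.17 ± 0.56, adjusted p = 0.0331, and in untreated mice -2.24 ± 0.41, adjusted p = 0.0103). Mouse 4 of week 3 had the lowest value of its group for both genes. Fabp3, the fatty acid-binding protein of muscle and heart, was at 31.9 and 29.9 CPM against 271, 342, 125, 69.1 and 144 CPM (-2.64 ± 0.63, adjusted p = 0.0493), and its change in untreated mice was not called (-0.61 ± 0.43, adjusted p = 0.359). Klhl31, a protein of skeletal muscle development, and Yipf7, a Golgi membrane protein, fell by 2.55 (adjusted p = 0.0348) and 2.66 (adjusted p = 0.0331) on the log2 scale. Neither was called in untreated mice (adjusted p = 0.0646 and 0.0886). Fgf6, a growth factor of muscle, was at 0.192 and 0.136 CPM against 0.856 to 1.27 CPM (-2.60 ± 0.44, adjusted p = 0.0323, and in untreated mice -1.51 ± 0.61, adjusted p = 0.123).

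Of the 28 genes of the skeletal muscle list, 3 fell and none rose, and all 28 had a negative value, at a median of -1.48. In untreated mice 1 of 28 fell and the median was -0.43. The difference between the arms was negative for all 28 genes, at a median of -1.09, but none passed its test. For 3 of them the unadjusted p was under 0.05, beside 6.35% of all genes. The 3 genes that fell with dual ICI were Myh2, Actn2 and Trdn. Actn2, the alpha-actinin of the Z-disc, was at 178 and 133 CPM against 982, 1137, 794, 372 and 539 CPM (-2.31 ± 0.48, adjusted p = 0.039, and in untreated mice -0.87 ± 0.34, adjusted p = 0.117). Trdn, triadin of the calcium release complex, was at 281 and 179 CPM against 505 to 984 CPM (-1.69 ± 0.36, adjusted p = 0.0414, and in untreated mice -0.57 ± 0.46, adjusted p = 0.426). The oxidative phosphorylation list, whose 20 tested genes encode subunits of the respiratory chain, had 2 genes that fell and none that rose, at a median of -1.06 (in untreated mice 1 of 20 fell at -0.39). Ndufs1, of complex I, was at 79.5 and 73.8 CPM against 310.0, 278, 211, 169 and 158 CPM (-1.57 ± 0.32, adjusted p = 0.0384, and in untreated mice -1.14 ± 0.24, adjusted p = 0.0166). Uqcrc2, of complex III, fell by 1.33 on the log2 scale (adjusted p = 0.0431, and in untreated mice -0.68 ± 0.25, adjusted p = 0.0937). With the muscle share as a covariate the median of the muscle list was -0.14 and that of the oxidative phosphorylation list 0.06, and the call of Uqcrc2 was lost. The covariate is the share of these same 28 muscle genes, so the shrinking of their median was built into that fit.

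The nuclear receptors Esrrg and Esrrb, estrogen-related receptors that drive oxidative metabolism in muscle, were also lower. Esrrg was at 2.66 and 1.82 CPM in the uncured mice and 17.7, 21.4, 18.2, 12.7 and 12.7 CPM in week 3 (-2.90 ± 0.33, adjusted p = 0.016, and in untreated mice -1.71 ± 0.34, adjusted p = 0.0135). Esrrb was at 1.12 and 0.845 CPM against 2.30 to 9.29 CPM (-2.56 ± 0.58, adjusted p = 0.0449, and in untreated mice -1.27 ± 0.41, adjusted p = 0.0667). Gdap1, a protein of the outer mitochondrial membrane, was at 0.512 and 0.518 CPM against 2.07 to 6.60 CPM (-2.92 ± 0.55, adjusted p = 0.0348), and in untreated mice the change was -0.83 ± 0.54 (adjusted p = 0.322). Car14, a membrane carbonic anhydrase, was at 3.14 and 3.08 CPM against 10.1 to 32.3 CPM (-2.68 ± 0.58, adjusted p = 0.0414, and in untreated mice -1.45 ± 0.45, adjusted p = 0.0585). Agbl1, a tubulin deglutamylase, fell by nearly equal amounts in both arms, -2.83 ± 0.41 (adjusted p = 0.028) and -2.73 ± 0.51 (adjusted p = 0.0109). Cuzd1, a protein with CUB and zona pellucida domains, was at 0.128 and 0.163 CPM against 0.731 to 2.44 CPM (-3.41 ± 0.66, adjusted p = 0.0371), and its change in untreated mice was -0.89 ± 0.55 (adjusted p = 0.293). Retnla, a secreted product of alternatively activated macrophages and fat, was at 106 and 70.7 CPM against 515, 943, 537, 267 and 645 CPM (-2.73 ± 0.50, adjusted p = 0.0348, and in untreated mice -2.29 ± 0.66, adjusted p = 0.0482).

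Among the most decreased genes, 2 were interferon-inducible GTPases. Gbp2b (chr3:142594847-142619179, plus strand) and Gbp2, its neighbour on chromosome 3, were also compared by the 250 bases before their start sites, because both are induced through the interferon-stimulated response element. In the RefSeq windows of GRCm38.p6, read on the plus strand, the capitals mark a match to the core of that element, a pair of GAAA repeats separated by any 2 bases, which both promoters hold on the opposite strand. The window of Gbp2b is chr3:142594597-142594846, with the match 137 to 128 bases before the start. That of Gbp2 is chr3:142620413-142620662, with the match 59 to 50 bases before the start. The GENCODE start of Gbp2, at 142620602, lies inside this window, so the match is before the RefSeq start only.
Gbp2b: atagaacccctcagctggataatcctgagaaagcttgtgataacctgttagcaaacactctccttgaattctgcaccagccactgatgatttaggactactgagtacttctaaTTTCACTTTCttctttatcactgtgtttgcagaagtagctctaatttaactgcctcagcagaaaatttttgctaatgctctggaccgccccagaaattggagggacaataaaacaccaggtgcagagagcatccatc
Gbp2: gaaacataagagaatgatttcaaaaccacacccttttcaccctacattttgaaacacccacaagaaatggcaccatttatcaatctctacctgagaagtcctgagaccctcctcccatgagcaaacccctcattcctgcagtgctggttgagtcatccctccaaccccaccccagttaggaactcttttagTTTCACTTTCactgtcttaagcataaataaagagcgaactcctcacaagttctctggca
A match is a description of these letters and does not show binding. With both strands searched, 3.04% of the 27025 gene windows of this length held the core, and of the 23 genes of the interferon gamma list, 15 had a window and 9 of these held it.

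Gbp2b was at 1.44 and 0.463 CPM in the uncured mice and at 10.7, 8.94, 22.3, 11.6 and 8.83 CPM in the dual ICI mice of week 3, the largest decrease of the genes named (-3.73 ± 0.60, adjusted p = 0.0305). In untreated mice it was at 0.657, 0.325, 0.293, 1.03 and 0.0587 CPM in week 5 and 1.29, 3.56, 1.63, 0.870 and 2.22 CPM in week 3 (-2.03 ± 0.58, adjusted p = 0.0473). All 5 dual ICI mice of week 3 were above every untreated mouse. Gbp10 was likewise highest in dual ICI mice of week 3, with 2.62 and 1.99 CPM in the uncured mice, 14.7, 7.37, 21.5, 20.9 and 10.3 CPM in dual ICI mice of week 3, 0.994 to 1.85 CPM in untreated mice of week 5 and 2.75 to 4.84 CPM in untreated mice of week 3. Its log2 fold change was -2.71 ± 0.48 (adjusted p = 0.0333) and in untreated mice -1.49 ± 0.24 (adjusted p = 0.00633). GBP genes are close paralogs, and reads of near-identical stretches may have been split between them. Gbp2 itself, added after its values had been seen, was at 82.8 and 120.5 CPM against 148, 111, 258, 359 and 205 CPM and was not called (-1.10 ± 0.44, adjusted p = 0.144, and in untreated mice -0.45 ± 0.26, adjusted p = 0.264).

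Gbp2b and Gbp10 are not on the interferon gamma response list, of which none of 23 tested genes was called by edgeR. An unadjusted p under 0.05 was reached by 12 of the 23, beside 28.8% of all genes, and 21 of the 23 values were negative, at a median of -0.86. In untreated mice 5 of 22 genes fell, none rose, and the median was -0.44. Gbp6, with 29.0 and 32.2 CPM in the uncured mice and 60.9, 40.7, 103, 136 and 77.5 CPM in week 3, had a log2 fold change of -1.46 ± 0.43 (adjusted p = 0.0739), and it fell in untreated mice, by 1.10 (adjusted p = 0.0155). Ifng itself was at 0.288 and 0.354 CPM against 0.908, 0.745, 1.19, 2.17 and 1.02 CPM (-1.91 ± 0.53, adjusted p = 0.0655), and DESeq2 called it lower (adjusted p = 0.0088). In untreated mice Ifng was too low to be tested, with means of 0.26 CPM in week 3 and 0.12 CPM in week 5. Its difference between the arms was -0.81 ± 0.95 (edgeR, unadjusted p = 0.405). Irgm2 was at 64.2 and 72.9 CPM against 95.3, 89.3, 148, 166 and 117 CPM (-0.86 ± 0.27, adjusted p = 0.0876, and in untreated mice -0.67 ± 0.12, adjusted p = 0.0101). For Gbp6, Ifng and Irgm2, both uncured mice were below all 5 mice of week 3. Picked after its value had been seen, Irf1 had a log2 fold change of -0.03 (adjusted p = 0.946), and of 0.14 in untreated mice (adjusted p = 0.650). The outcome for this list depended on the model. With the muscle share as a covariate 17 of 23 genes were called lower at a median of -1.47, with DESeq2 6 of 23, and in the 7 fits that left out a library the median lay between -0.997 and -0.646.

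For T cells, no list gave more than 1 call, and at the 5.31% of all genes called, lists this short would hold few. None of the 13 tested genes of the T cell receptor complex was called (median -0.15), and none of the 9 of cytotoxic granules (-0.31), of the 12 inhibitory checkpoint genes (-0.09), of the 6 regulatory T cell genes (-0.03) or of the 12 costimulatory genes (-0.04). All of these medians were lower with the muscle share as a covariate, at -0.48, -0.94, -0.73, -0.17 and -0.22, and 1, 0, 2, 0 and 3 genes were called lower. Of the CD8 chains 1 of 2 was then called lower. In untreated mice, without the covariate, the medians were 0.15 for the receptor complex, 0.25 for cytotoxic granules and 0.20 for inhibitory checkpoints. They were -0.08 for regulatory T cell and -0.30 for costimulatory genes. In that arm 1 gene rose and 1 fell in the receptor complex list. In the granule and checkpoint lists 1 gene each rose, and 1 costimulatory gene fell. Cd8a was at 8.55 and 9.02 CPM in the uncured mice and 10.4, 10.7, 16.0, 23.3 and 8.39 CPM in week 3 (-0.66 ± 0.39, adjusted p = 0.296). Cd8b1, the partner chain of the CD8 coreceptor, was at 3.04 and 3.98 CPM against 4.99, 4.69, 4.96, 8.67 and 2.86 CPM (-0.59 ± 0.40, adjusted p = 0.362, and in untreated mice 0.37 ± 0.35, adjusted p = 0.507). Mouse 4 of week 3, with the highest value for both chains, was far from the uncured mice, while mouse 5 of week 3 lay close to them. In untreated mice Cd8a was at 1.99 to 4.73 CPM in week 5 and 1.55 to 4.19 CPM in week 3 (0.22 ± 0.31, adjusted p = 0.668). Irf4, a factor of activated T cells and plasma cells, was the single call among 15 transcription factors of T cell states, at 11.3 and 6.97 CPM against 20.1, 25.3, 23.0, 14.8 and 20.6 CPM (-1.19 ± 0.28, adjusted p = 0.0472, and in untreated mice -1.16 ± 0.36, adjusted p = 0.0582), and it was not called under the muscle covariate.

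Of the 40 tested genes that the study discusses, none was called, beside 5.31% of all genes. An unadjusted p under 0.05 was reached by 8 of the 40, beside 28.8% of all genes, and the median was 0.18. Because the study chose these genes on libraries of this series, the list is not independent. Foxp3, the lineage factor of regulatory T cells, was at 5.22 and 5.23 CPM in the uncured mice and 0.949, 1.34, 2.68, 2.38 and 2.73 CPM in week 3 (1.36 ± 0.39, adjusted p = 0.0707, and in untreated mice 0.60 ± 0.25, adjusted p = 0.137). Pdcd1, which encodes PD1, was at 5.76 and 8.58 CPM against 3.88, 1.68, 4.33, 4.79 and 4.58 CPM (0.88 ± 0.37, adjusted p = 0.161), and it rose in untreated mice (1.03 ± 0.26, adjusted p = 0.0312). Both uncured mice were above week 3 for Foxp3 and Pdcd1. Ctla4 was at 2.497 and 2.18 CPM against 1.49, 1.42, 1.72, 4.41 and 1.84 CPM (0.08 ± 0.47, adjusted p = 0.928, and in untreated mice 0.42 ± 0.37, adjusted p = 0.471). Cd28, the costimulatory receptor, was at 2.79 and 3.10 CPM against 6.73, 5.62, 9.29, 7.01 and 4.86 CPM (-1.20 ± 0.30, adjusted p = 0.0533), and it fell in untreated mice by 1.54 on the log2 scale (adjusted p = 0.0202). Ccl20, the ligand of CCR6, was at 3.23 and 3.92 CPM against 0.521 to 1.95 CPM (1.53 ± 0.45, adjusted p = 0.0731, and in untreated mice 1.84 ± 0.48, adjusted p = 0.0339). Gzmb was at 1.22 and 1.39 CPM against 1.82, 1.75, 1.85, 4.20 and 1.49 CPM (-0.79 ± 0.46, adjusted p = 0.293, and in untreated mice 0.42 ± 0.36, adjusted p = 0.449). DESeq2 called 2 genes of this list higher and 3 lower, among them Foxp3 (adjusted p = 0.0139), Cd28 (adjusted p = 0.00197) and Ccl20 (adjusted p = 0.0160). The muscle covariate gave 4 lower calls, at a median of -0.39.

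The B cell list had 2 genes that rose among 9 tested and none that fell, at a median of 0.70 (in untreated mice 0 of 9 at 0.47). Both are genes of antibody-secreting cells. Jchain, the joining chain of IgA and IgM, was at 196 and 163 CPM in the uncured mice and at 34.5, 21.9, 26.8, 71.9 and 15.9 CPM in week 3, so that both uncured mice were above all 5 of week 3. Its log2 fold change was 2.38 ± 0.47 (adjusted p = 0.0375). In untreated mice it was at 26.2, 5.03, 37.95, 145 and 33.6 CPM in week 5 and 9.37, 23.4, 42.0, 5.22 and 4.18 CPM in week 3, a change of 1.56 ± 0.82 (adjusted p = 0.219). Mzb1, a chaperone of immunoglobulin assembly, was at 6.75 and 7.05 CPM against 2.64, 2.23, 1.09, 2.38 and 1.05 CPM (1.86 ± 0.39, adjusted p = 0.039), and its change in untreated mice was 0.41 ± 0.46 (adjusted p = 0.576). The difference between the arms had an unadjusted p of 0.0439 for Mzb1 and 0.481 for Jchain. Of the 9 genes, 8 had a positive value. For Cd79a and Cd79b, not called in either arm, both uncured mice were above all 5 of week 3. Cd79a was at 2.43 and 2.18 CPM against 0.636 to 1.31 CPM (1.37 ± 0.35, adjusted p = 0.0556, and in untreated mice 1.23 ± 0.46). DESeq2 called it higher (adjusted p = 0.00578). Cd79b changed by 0.70 ± 0.26 (adjusted p = 0.126, and in untreated mice 0.71 ± 0.34). The pan-B cell gene Ms4a1, picked after its value had been seen, had the lowest log2 fold change of the list, -0.33. It was not called, as in untreated mice, where it was 0.47.

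Myeloid and antigen presentation lists gave no call in the dual ICI arm, where 5.31% of all genes were called. None of 18 macrophage genes, 10 dendritic cell genes, 10 neutrophil genes, 11 MHC class II genes and 15 genes of MHC class I and antigen processing was called, at medians of -0.13, -0.19, 0.78, -0.32 and 0.05. The medians in untreated mice were, in this order, -0.03, -0.35, 0.37, -0.24 and 0.19. Of the neutrophil genes 9 of 10 had a positive value with dual ICI, and 2 of 9 rose in untreated mice. Spp1, osteopontin, was at 499 and 406 CPM in the uncured mice and 51.8, 63.2, 118, 291 and 127 CPM in week 3 (1.79 ± 0.56, adjusted p = 0.0829, and in untreated mice 0.62 ± 0.37, adjusted p = 0.27). Mouse 4 of week 3 again lay nearest to the uncured mice. All 11 MHC class II genes had values at or below 0, the lowest for H2-DMb2 (-0.97 ± 0.25, adjusted p = 0.0548, and in untreated mice -0.67 ± 0.27, adjusted p = 0.123). Under the muscle covariate the neutrophil median turned to -0.13, the macrophage median was -0.49 with 3 genes called lower, and 1 gene of each MHC list was called lower. DESeq2 called 3 macrophage genes higher and 2 lower, and 2 MHC class II genes lower.

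The inflammatory lists held few calls in number, where 3.05% of all genes were called higher and 2.26% lower. Of the 22 genes of the IL6, JAK and STAT3 list, 3 rose and none fell (median 0.32, and in untreated mice 3 rose and 2 fell at 0.03). Lcn2, a secreted iron-sequestering protein of inflamed epithelium, was at 22.9 and 22.3 CPM against 4.58, 4.51, 6.41, 6.499 and 5.53 CPM (2.02 ± 0.20, adjusted p = 0.0121, and in untreated mice 1.76 ± 0.29, adjusted p = 0.00633). Saa3, a serum amyloid A protein, was at 11.8 and 15.3 CPM against 4.99, 6.00, 4.63, 4.65 and 4.51 CPM (1.44 ± 0.21, adjusted p = 0.028, and in untreated mice 2.503 ± 0.48, adjusted p = 0.0123). Bcl3, an atypical inhibitor of NF-kB, was at 52.7 and 71.2 CPM against 24.1, 28.4, 27.9, 27.5 and 43.0 CPM (1.03 ± 0.23, adjusted p = 0.0447), and its change in untreated mice was 0.08 ± 0.19 (adjusted p = 0.804). Of 15 TNF and NF-kB genes, 1 rose, Relb (0.73 ± 0.16, adjusted p = 0.0442, and in untreated mice 0.70 ± 0.18, adjusted p = 0.0314). The call of Relb was lost with the muscle share as a covariate. Of 29 chemokine genes 1 rose and 1 fell, which is near the 3.05% and 2.26% of all genes. With the covariate 1 was called higher and 6 lower, and Ccl11 was no longer called. Cxcl14, a chemokine of epithelium and stroma, was at 180.4 and 284 CPM against 65.0 to 99.2 CPM (1.47 ± 0.22, adjusted p = 0.0292, and in untreated mice 0.96 ± 0.27, adjusted p = 0.0425). Ccl11, the eosinophil attractant eotaxin, was at 10.9 and 9.56 CPM against 14.0 to 26.9 CPM (-1.16 ± 0.27, adjusted p = 0.0481, and in untreated mice -0.73 ± 0.28, adjusted p = 0.106).

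Matrix and growth factor lists gave few calls. In the matrix remodelling list 2 of 19 genes rose, both matrix metalloproteinases, at a list median of 0.52 that turned to -0.23 with the muscle share as a covariate. Mmp7, matrilysin of epithelial cells, was at 13.3 and 3.76 CPM against 0.454, 0.0372, 0.926, 0.936 and 1.11 CPM (3.59 ± 0.72, adjusted p = 0.0375, and in untreated mice 2.58 ± 0.52, adjusted p = 0.014). Mmp11, a stromal metalloproteinase, was at 24.3 and 30.7 CPM against 9.27 to 14.8 CPM (1.23 ± 0.20, adjusted p = 0.0318, and in untreated mice 1.02 ± 0.21, adjusted p = 0.0144). In the TGF-beta and activin list 2 of 19 rose, among them the inhibitory Smad Smad7 (0.89 ± 0.20, adjusted p = 0.0447, and in untreated mice 0.19 ± 0.11, adjusted p = 0.277). None of 18 collagen genes was called in the dual ICI arm (median -0.20), whereas 9 of 18 fell in untreated mice (median -0.76). The difference between the arms had a median of 0.57 over the collagen list, and no member passed its test. Of 8 mesothelial genes 6 had a negative and 2 a positive value. Msln, mesothelin, was at 217 and 204 CPM in the uncured mice and at 78.9, 63.9, 114, 110.3 and 148 CPM in week 3, so that both uncured mice were above week 3 (1.02 ± 0.29, adjusted p = 0.0659, and in untreated mice 0.73 ± 0.31, adjusted p = 0.144), and DESeq2 called it higher (adjusted p = 0.0160). The 2 genes that fell were Bnc1, a transcription factor of mesothelium (4.45 and 3.24 CPM against 8.53 to 16.1 CPM, -1.58 ± 0.30, adjusted p = 0.0348, and in untreated mice -0.66 ± 0.28, adjusted p = 0.137), and Gpm6a, a membrane glycoprotein (8.77 and 8.31 CPM against 17.2 to 48.2 CPM, -1.98 ± 0.38, adjusted p = 0.0369, and in untreated mice -1.36 ± 0.28, adjusted p = 0.0158).

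Markers of other cell types that stripped peritoneum can hold gave no call for 12 adipocyte genes (median -0.70), 12 fibroblast genes (-0.41) and 12 endothelial genes (-0.33). In untreated mice 1, 7 and 1 of these fell. Of 5 liver genes and 1 exocrine pancreas gene tested, Apoa1 and Cela1 rose. Apoa1, an apolipoprotein of liver and gut, changed by 1.83 ± 0.42 (adjusted p = 0.0461) with dual ICI and also rose in untreated mice, by 2.35 ± 0.63 (adjusted p = 0.0381). Cela1, an elastase, changed by 1.86 ± 0.39 (adjusted p = 0.039) and in untreated mice by 0.94 ± 0.36 (adjusted p = 0.104). Neither was called with the muscle share as a covariate, where the adipocyte median turned to 0.42 with 1 gene called higher, and the endothelial median to 0.02 with 1 called higher, while 1 fibroblast gene was called lower.

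Stress and growth lists were mixed. In the immediate early list 2 of 16 genes rose, Ier2 (0.73 ± 0.16, adjusted p = 0.0442, and in untreated mice 0.69 ± 0.23, adjusted p = 0.0685) and Ier3 (0.94 ± 0.22, adjusted p = 0.0498, and in untreated mice 1.02 ± 0.22, adjusted p = 0.0188), of which Ier3 was not called under the muscle covariate. Ddit4, an inhibitor of mTORC1 that responds to stress, was at 66.5 and 88.3 CPM against 22.2 to 35.4 CPM (1.53 ± 0.20, adjusted p = 0.0271, and in untreated mice 0.94 ± 0.33, adjusted p = 0.0819) and was the single call among 13 genes of the integrated stress response. Pfkl, the liver type of phosphofructokinase, was the single call among 23 genes of hypoxia and glycolysis (0.95 ± 0.16, adjusted p = 0.0318, and in untreated mice 0.56 ± 0.24, adjusted p = 0.151). None of 25 cell cycle genes was called, at a median of -0.01 (untreated 0.18). With the muscle share as a covariate 14 of the 25 were called lower at a median of -0.74.

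**Figure D5:**
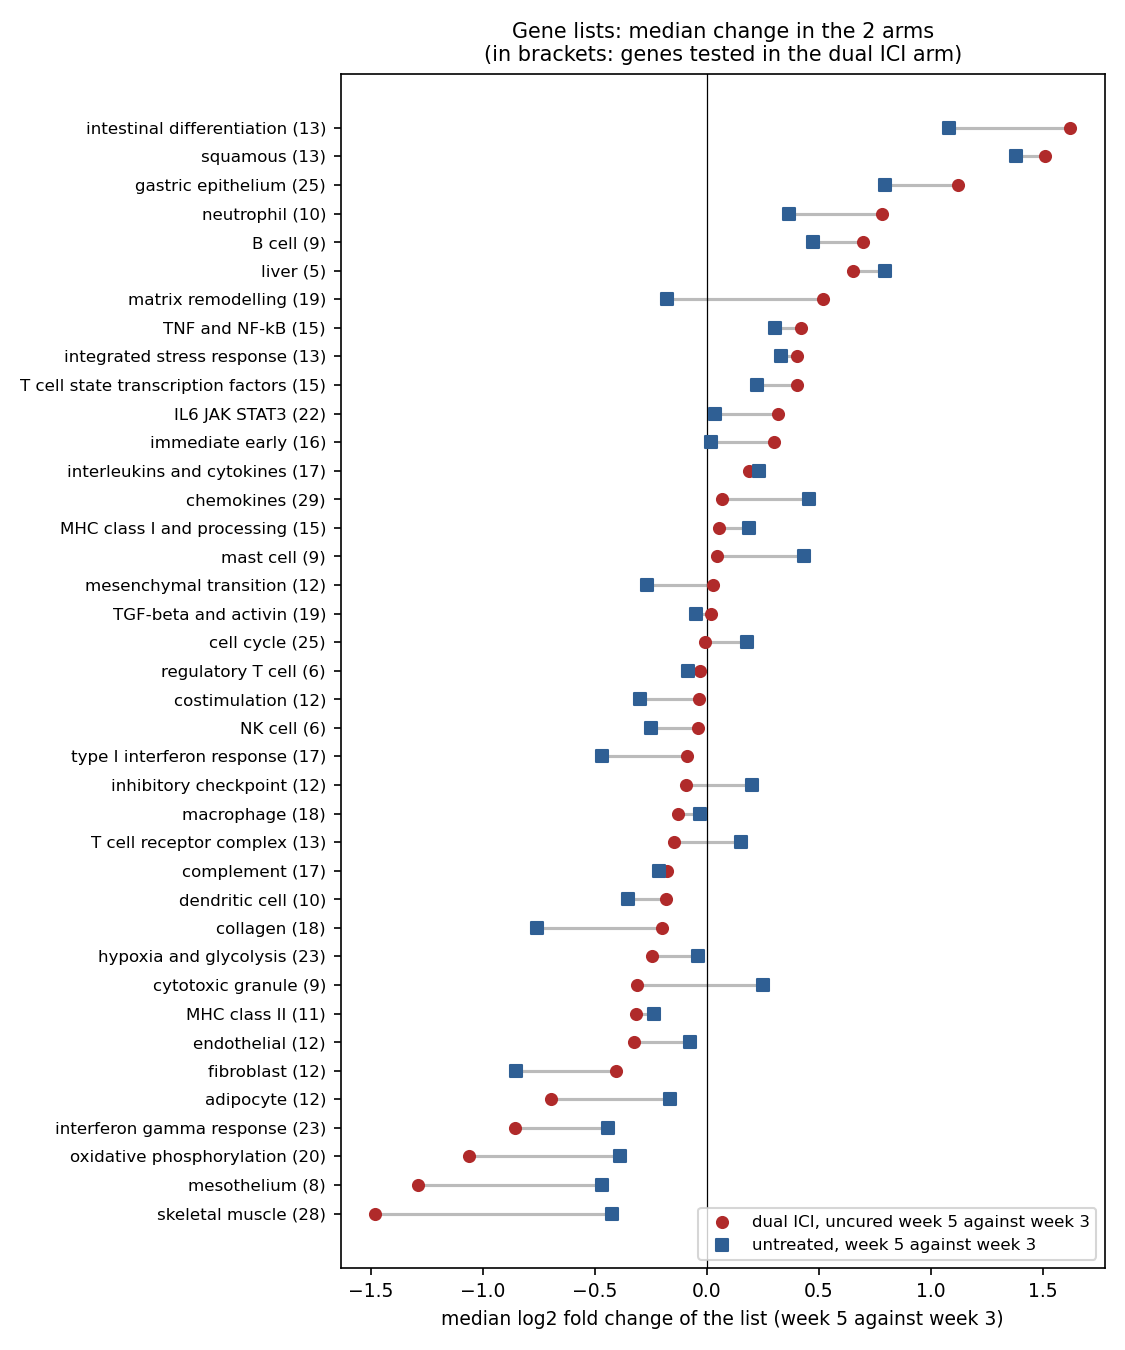
Median log2 fold change from week 3 to week 5 of each gene list with at least 5 tested genes, in uncured dual ICI mice (circles) and in untreated mice (squares). The intestinal, squamous and gastric lists have the highest medians in the dual ICI arm, and the skeletal muscle list is lowest in the dual ICI arm, at -1.48 beside -0.43 in untreated mice.

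The genes that differed most between the arms did not pass the test of the difference. By unadjusted p the leading gene was Cd247, which encodes the zeta chain of the T cell receptor complex. It was at 2.79 and 2.15 CPM in the uncured mice and 4.29, 3.798, 4.00, 4.09 and 3.37 CPM in dual ICI mice of week 3, and at 2.54, 3.53, 2.11, 2.82 and 2.82 CPM and 1.57, 1.51, 1.96, 1.49 and 1.78 CPM in untreated mice of week 5 and week 3. The uncured mice were below all dual ICI mice of week 3, whereas the untreated mice of week 5 were above all those of week 3. The change was -0.68 ± 0.25 (adjusted p = 0.121) with dual ICI and 0.73 ± 0.20 (adjusted p = 0.0416) without, and the difference was -1.40 ± 0.29 (unadjusted p = 1.88e-04, adjusted p = 0.707). With DESeq2 it was the single gene called (adjusted p = 0.0126). Other chains of the complex, picked after their values had been seen, gave no call, with Cd3e, Cd3g and Cd3d at -0.52, -0.17 and 0.04 with dual ICI (adjusted p = 0.345, 0.785 and 0.948) and at -0.33, 0.78 and 0.61 in untreated mice (adjusted p = 0.336, 0.103 and 0.305).

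Other genes with opposite values in the arms were followed in the same way. Fbxo32, the muscle ubiquitin ligase atrogin-1, was at 121 and 165 CPM in the uncured mice and 438, 547, 279.9, 138 and 196 CPM in week 3 (-1.18 ± 0.53, adjusted p = 0.182), and it rose in untreated mice (1.23 ± 0.35, adjusted p = 0.0464). Chac1, a glutathione-degrading enzyme of the stress response, was at 21.7 and 21.6 CPM against 76.1, 79.6, 40.5, 11.8 and 39.1 CPM (-1.21 ± 0.63, adjusted p = 0.239), and it also rose in untreated mice (1.93 ± 0.43, adjusted p = 0.0198). Mouse 4 of week 3 was below the uncured mice for Chac1. Psmd14, a deubiquitinase of the proteasome lid, and Abcb1b, a drug efflux transporter, had differences of -0.70 ± 0.19 and -0.76 ± 0.21 (unadjusted p = 0.00168 and 0.00217). On the positive side, Ccr10, a chemokine receptor of antibody-secreting and skin-homing lymphocytes, was at 2.62 and 2.15 CPM against 0.743, 1.154, 0.760, 0.883 and 1.59 CPM in the dual ICI arm and at 0.909 to 1.71 CPM against 1.26 to 2.55 CPM in untreated mice. Its difference was 1.94 ± 0.42 (unadjusted p = 2.66e-04). Lgals12, a galectin of fat cells, Banp, a nuclear matrix-associated regulator, Zfhx2, a homeobox factor, and Hspa1b, an inducible HSP70, had differences of 1.14 ± 0.25, 0.94 ± 0.22, 0.92 ± 0.23 and 1.37 ± 0.35. Their unadjusted p values were 3.23e-04, 4.37e-04, 7.69e-04 and 0.00103.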

How the data were processed

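Bulk RNA-seq of mouse peritoneal tissue was analysed from the deposited table of raw read counts per gene symbol (29 libraries, 24421 symbols, 0 columns without a sample). Per the labels, the authors aligned reads to mm10 with STAR 2.7.0f and counted them with featureCounts 1.6.4. The study's methods name STAR and HTSeq instead. The annotation and the strand setting are not given in the sources used here, so overlapping and antisense genes cannot be told apart. Counts were filtered with filterByExpr, scaled by TMM and tested by edgeR 4.0.16 (quasi-likelihood, Benjamini-Hochberg over all genes tested) in R 4.3.3, within each arm and, for the difference between the arms, over the 17 libraries of the 4 groups in one fit. DESeq2 1.42.0, other filters and scalings, the log2 muscle share as a covariate, all 29 libraries in one fit, a replicate block and each library left out were alternatives. Positions are of GENCODE vM21 (GRCm38), which matched 95.8% of symbols, and promoter windows are of RefSeq. The test was checked on simulated data with 200 genes changed 4-fold. It recovered 84.5% in the dual ICI arm and 75.5% for the difference between the arms, with 10 and 9 false calls. Genes were drawn independently there, without the differences in tissue composition of these libraries, so the shares recovered need not hold here.

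The 7 libraries, the gene lists and the rules were chosen with earlier results of these data known. Genes named were the 15 with the largest change in each direction among called genes with groups that did not overlap, at least 10 counts in each group and 1 CPM in the higher group, then the 5 of smallest p in each direction for the difference between the arms, up to 4 of smallest p in each list, and the genes the study names. Symbols of predicted genes and clones were passed over, and genes named outside this rule are said to be so. No pair of libraries within a group agreed within counting noise. P-values set each change against the spread between mice within the groups. Within an arm they do not cover variation between the sequencing series, which cannot be told apart from week. Some genes are not reported here.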

Additional observations from a re-analysis of the deposited data

Results flagged for a closer look

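In the dual ICI group of week 3, 235 named genes were examined for a mouse that stood apart from the other 4 on a log scale by Dixon's criterion, and 8 were found. Chance alone gives about 1 in 20, which is more than the 8 of 235 found here. Many of these genes were named for a small p in tests that used the same 5 mice. The chance rate therefore need not hold for them. Mouse 4 was high for Ctla4 (4.41 CPM, others 1.42 to 1.84), Gzmb (4.20 CPM, others 1.49 to 1.85) and Rhox5 (0.374 CPM, others 0.0745 to 0.132), and low for the cytokine receptor Lifr (65.2 CPM, others 84.9 to 92.8). Mouse 2 was low for Pdcd1 (1.68 CPM, others 3.88 to 4.79) and Lag3 (5.25 CPM, others 7.57 to 8.48). Mouse 5 was high for Bcl3 (43.0 CPM, others 24.1 to 28.4) and Col18a1 (105 CPM, others 61.5 to 69.7). The groups of 2 uncured mice allow no such check.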

How the results depend on the processing

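Counts of called genes were the values most dependent on the processing. In the dual ICI arm 857 genes were called, and the count was 3173 with DESeq2, 1645 with the muscle share as a covariate, 238 with all 29 libraries in one fit and 3192 with a replicate block on the title number. It ran from 0 to 4006 when 1 library was left out, without uncured mouse 1 and without mouse 4 of week 3. A lone uncured mouse was assumed there to vary like the dual ICI mice of week 3. In untreated mice 1687 genes were called, with 3141 under DESeq2, 3245 under the covariate, and 654 to 4915 when 1 library was left out, the highest without mouse 2 of week 5 and the lowest without mouse 5 of week 3. The calls shared by both arms numbered 358, against 1255 with DESeq2, 881 with the covariate, 122 with all libraries in one fit, 924 with the block, and 0 to 818 when 1 library was left out. The test of the difference between the arms gave 0 calls under every alternative run except DESeq2, which gave 1. Upper-quartile scaling, both other filters and leaving out the muscle genes moved no count by more than 1.5 times. No named gene that was called changed sign under any of these alternatives. For calls in the dual ICI arm, fits that left out a library could hardly give another result, since the groups of these genes did not overlap.

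The title numbers do not pair the mice. The dual ICI libraries of week 3 titled 1 to 5 carry the numbers 1, 3, 7, 8 and 9 in their labels. Mouse numbers in this text are those of the titles. Correlations between the deviations of same-numbered mice from their group means were 0.175 and 0.0321 in the dual ICI arm and ranged from -0.116 to 0.399 in untreated mice, and the labels do not say that a number marks a shared animal or batch. The block leaves 1 residual degree of freedom in the dual ICI arm. With 2 uncured mice, the number of mice limits the precision at a depth of 25989217 to 31219650 counts.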

Other observations

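The lists of clock, ribosomal protein and cilia genes were added after values had been seen. Among 15 genes of the circadian clock, 2 rose and 2 fell in the uncured mice. Per2, a repressor of the clock, was at 29.4 and 35.5 CPM against 5.45 to 11.1 CPM in week 3 (1.92 ± 0.28, adjusted p = 0.028, and in untreated mice 0.72 ± 0.25, adjusted p = 0.0804). Per1, a related repressor, was at 60.6 and 79.1 CPM against 20.4 to 41.7 CPM (1.27 ± 0.25, adjusted p = 0.0374, and in untreated mice 1.43 ± 0.30, adjusted p = 0.0173). Arntl, of the activating complex, was at 14.9 and 13.5 CPM against 29.1 to 39.8 CPM (-1.25 ± 0.19, adjusted p = 0.0305, and in untreated mice -1.33 ± 0.15, adjusted p = 0.00212). Npas2, a partner of Arntl, was at 3.46 and 4.77 CPM against 9.53 to 11.4 CPM (-1.37 ± 0.22, adjusted p = 0.0305, and in untreated mice -1.91 ± 0.15, adjusted p = 5.53e-04). Dbp, an output gene of the clock, was at 46.8 and 36.8 CPM against 46.1, 30.7, 19.9, 11.0 and 40.5 CPM (0.48 ± 0.47, adjusted p = 0.529), whereas it rose in untreated mice (2.62 ± 0.41, adjusted p = 0.0062). The hour at which each mouse was killed is not given in the sources used here.

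Cytosolic ribosomal protein genes took 4.01% and 4.04% of the counts of the uncured mice against 2.17% to 2.45% in dual ICI mice of week 3. The share was 2.89% to 5.87% in untreated mice of week 5 and 1.97% to 2.43% in those of week 3. Of 77 genes tested, 3 rose in the dual ICI arm (Rpl32, Rpl39 and Rpl41, at a list median of 0.47) and 64 in untreated mice (median 0.97). Genes with up to 1000 exonic bases had a median log2 fold change of 0.06 in the dual ICI arm and 0.38 in untreated mice, and genes over 8000 bases -0.05 and -0.13. Foxj1, the master regulator of motile cilia, was at 10.0 and 9.45 CPM in the uncured mice against 0.660, 1.23, 1.09, 1.42 and 1.84 CPM in week 3 (2.94 ± 0.32, adjusted p = 0.0153, and in untreated mice 1.93 ± 0.41, adjusted p = 0.0177) and was the single call among 9 cilia genes tested. The list as a whole did not rise with it. Only 4 of the 9 had a positive value in the dual ICI arm, at a median of -0.37. In untreated mice 3 of 9 rose, at a median of 0.60.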
